A study of Mus musculus with 10 samples.

Results

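Col18a1, Timp3, Adamts1 and Adamts5 are 4 genes of the extracellular matrix that were followed over all groups of a study on BMMCs, bone marrow-derived mast cells that are obtained by culture of mouse marrow with interleukin 3 (IL-3). They were taken from the 49671 gene rows of the count table by matching their symbols to Ensembl identifiers, and all 4 passed the filter on low counts that left 11247 genes. The genes were chosen by the size of their expression differences between cells with and without the KIT ligand stem cell factor (SCF), so every difference with SCF below is a description without a test. The tests concern transforming growth factor beta (TGF-β), which the choice did not use by name, although the tests and the SCF differences share libraries. This holds for the tests of all 4 genes, including Col18a1, with 1482 counts with SCF and TGF-β against 0 with TGF-β alone. For Adamts1 and Adamts5, the log2 SCF differences were -1.25 and -1.70 against TGF-β alone. Against IL-3 they were 0.68 and -0.10.

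All libraries came from wild type C57BL/6 mice, with 6 to 8 weeks as the labelled age, and from cells cultured in IL-3. The 6 groups were SCF plus 10 ng/mL TGF-β (n = 2), SCF plus 1 ng/mL TGF-β (n = 2), SCF at 100 ng/mL (n = 2), 10 ng/mL TGF-β alone (n = 1), 1 ng/mL TGF-β alone (n = 1), and IL-3 alone (n = 2). Stimulation lasted 72 h (no duration is labelled for IL-3 alone), the SCF dose of the combinations is not labelled, and IL-3 is labelled 10 ng/mL in one field and 5 ng/mL in another. The labels do not say whether replicate libraries are separate cultures or mice, and the p-values therefore reflect the spread among libraries, which may be technical. Gene counts ranged from 1237382 to 2323916 per library with a median of 1708116. The libraries of TGF-β alone had the fewest, with 1237382 at 10 ng/mL and 1295048 at 1 ng/mL. The latter also had the lowest share of counted reads in genes, 16.4%. In CPM (read counts scaled to a common library size), 3 counts corresponded to 1.26 to 2.55, so the low levels below rest on few reads. The summed CPM of 9 mast cell markers lay between 53530 and 90440 in every library, that of 10 fibroblast and stromal markers between 0 and 3.89, and Col1a2, Col3a1, Lum, Acta2 and Thy1 had 0 counts in all 10 libraries.

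The extracellular matrix is a mesh of collagens and proteoglycans that cells secrete and that metalloproteinases cut. Collagen XVIII, the product of Col18a1, is a basement membrane collagen that carries heparan sulfate, and its C-terminal fragment is endostatin. ADAMTS1 and ADAMTS5 are secreted metalloproteinases that cleave the large proteoglycans versican and aggrecan, furin-like convertases activate them, and TIMP3 is an inhibitor that binds to the matrix and blocks ADAMTS enzymes, ADAM17 and matrix metalloproteinases. TGF-β signals through SMAD proteins and is known in many tissues as a regulator of matrix genes, while SCF acts through KIT on mast cell growth and survival.

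In GENCODE vM21 on GRCm38, Col18a1 (ENSMUSG00000001435) lies on chromosome 10 from 77052178 to 77166548 on the minus strand, and its exons share no base with the overlapping genes Slc19a1 and Gm7775. Timp3 (ENSMUSG00000020044) lies on chromosome 10 from 86300372 to 86349506 on the plus strand, inside Syn3, which runs on the other strand and shares 1733 exonic bases with it. Adamts1 (ENSMUSG00000022893) and Adamts5 (ENSMUSG00000022894) are neighbours on the minus strand of chromosome 16, from 85793827 to 85803113 and from 85856173 to 85901828. The gap between them is 53.1 kb and holds 1 annotated gene, which is not protein-coding.

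Promoter windows are shown because the 3 matched genes follow different patterns over the groups, one with SCF and TGF-β together, one low with SCF and one with TGF-β. RefSeq on GRCm38.p6 gave 4 windows for 3 of the 4 genes, each from 250 bases before to 50 bases after an annotated start and written 5′ to 3′ along the gene. Capitals mark matches, on either strand, to any of 6 motifs searched: the SMAD site CAGAC, the AP-1 site TGANTCA, the GC box GGGCGG, the TATA box TATAAA, the GATA site AGATAA and the E-box CACGTG. No matched positions overlapped another motif's. The windows are chr10:77166481-77166780 and chr10:77113656-77113955 for Col18a1, chr10:86300162-86300461 for Timp3 and chr16:85803064-85803363 for Adamts1; Timp3's is read from the plus strand and the others from the minus strand.
Col18a1 first start: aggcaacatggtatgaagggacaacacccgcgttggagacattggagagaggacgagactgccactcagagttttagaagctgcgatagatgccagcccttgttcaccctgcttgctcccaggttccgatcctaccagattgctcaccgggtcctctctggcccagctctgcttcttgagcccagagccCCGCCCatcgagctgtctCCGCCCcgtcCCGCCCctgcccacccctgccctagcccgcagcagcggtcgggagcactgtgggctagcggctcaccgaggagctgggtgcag
Col18a1 second start: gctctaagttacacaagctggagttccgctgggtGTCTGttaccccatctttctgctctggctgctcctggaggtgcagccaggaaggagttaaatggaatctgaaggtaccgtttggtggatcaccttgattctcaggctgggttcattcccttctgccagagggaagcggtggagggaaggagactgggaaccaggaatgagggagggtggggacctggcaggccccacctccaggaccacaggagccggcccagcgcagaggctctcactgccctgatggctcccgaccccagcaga
Timp3: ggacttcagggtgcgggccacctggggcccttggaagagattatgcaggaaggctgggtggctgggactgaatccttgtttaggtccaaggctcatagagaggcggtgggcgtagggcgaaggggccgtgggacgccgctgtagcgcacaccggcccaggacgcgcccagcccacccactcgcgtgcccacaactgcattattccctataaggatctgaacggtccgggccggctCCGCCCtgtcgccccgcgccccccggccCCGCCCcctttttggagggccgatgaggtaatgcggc
Adamts1: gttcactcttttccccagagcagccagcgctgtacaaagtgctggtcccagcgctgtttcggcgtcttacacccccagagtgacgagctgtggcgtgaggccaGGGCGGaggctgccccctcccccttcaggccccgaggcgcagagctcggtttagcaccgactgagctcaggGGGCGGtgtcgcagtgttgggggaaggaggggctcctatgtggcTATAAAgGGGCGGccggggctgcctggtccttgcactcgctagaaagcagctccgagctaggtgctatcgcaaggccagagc

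The first Col18a1 window held 3 GC boxes and the second held 1 SMAD site, whose first base lies 216 bases before the start. The Timp3 window held 2 GC boxes. The Adamts1 window held 3 GC boxes and a TATA box that begins 32 bases before the start. Of all 32851 promoter windows of this length, 49.6% hold the SMAD site, 35.7% the GC box, 13.6% the TATA box, 11.2% the GATA site, 7.8% the AP-1 site and 7.2% the E-box. A match describes letters and not a bound site, and the gene-level counts do not say which Col18a1 start was used.

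Col18a1 transcripts were found almost entirely in cells given SCF, and there TGF-β raised them further. The SCF libraries held 12.5 and 27.1 CPM without TGF-β, 134 and 201 CPM with 1 ng/mL and 185 and 224 CPM with 10 ng/mL. Every library with SCF and TGF-β lay above both libraries with SCF only, and the doses overlapped. Against SCF only, Col18a1 rose by 3.11 ± 0.28 on the log2 scale with 1 ng/mL TGF-β, an 8.62-fold change (SE, n = 2 each, edgeR quasi-likelihood test, adjusted p = 4.46e-06). With 10 ng/mL the rise was 3.403 ± 0.28, or 10.6-fold (adjusted p = 7.27e-07). By size, Col18a1 ranked 36 among the rises of all genes at each dose. The values were 2.61 and 2.91 without SCF replicate 1 and 3.73 and 4.02 without SCF replicate 2, and the gene was called in each. In bulk RNA, more RNA per cell and more cells that make it cannot be told apart.

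Outside the SCF groups Col18a1 was at or under the limit of detection. The library with 10 ng/mL TGF-β alone, the library with 1 ng/mL alone and the first IL-3 library had 0 counts, and the second IL-3 library had 1 count. As a description, the pooled libraries with SCF held 68 counts against 1 count with IL-3, a scaled ratio of 63.7 with a 95% counting interval of 11.05 to 2551. That ratio was 42.2 without SCF replicate 2 and 27.1 without IL-3 replicate 1. The libraries with SCF and TGF-β pooled held 1482 counts against 0 counts with TGF-β alone. With 3 counts over the group taken as the floor, the bound on the ratio was 149.6-fold. The bound was 71.5-fold without the library of 10 ng/mL TGF-β alone and 78.1-fold without that of 1 ng/mL. By dose, it was 63.5-fold at 1 ng/mL and 86.9-fold at 10 ng/mL. The 95% counting intervals started below these bounds, at 121.5 for the pooled doses, 51.5 at 1 ng/mL and 70.5 at 10 ng/mL. The wide interval of the ratio to IL-3 reflects its single count. No fold of TGF-β alone over IL-3 is given, since both sides lie under that floor.

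Endothelial cells are a known source of collagen XVIII, and the sum of that marker list was highest where Col18a1 was highest. The summed CPM of the 7 endothelial markers was 833 to 929 in the libraries with SCF and TGF-β, 605 to 636 with SCF, 535 and 603 with TGF-β alone at 10 and 1 ng/mL, and 510 to 528 with IL-3. Pecam1, Tek and Vwf, which are not limited to endothelial cells, made up nearly all of it. Tek did not follow Col18a1, with unscaled counts of 66 and 39 with SCF and 86 and 54 with IL-3. With TGF-β alone, where Col18a1 had 0 counts, Tek had 95 and 83 counts at 10 and 1 ng/mL. Vwf had 304 and 253 counts with SCF against 116 and 129 with IL-3, and Pecam1 893 and 668 against 779 and 569. The defining markers Cdh5 and Kdr had 0 counts in all 10 libraries.

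**Figure D1:**
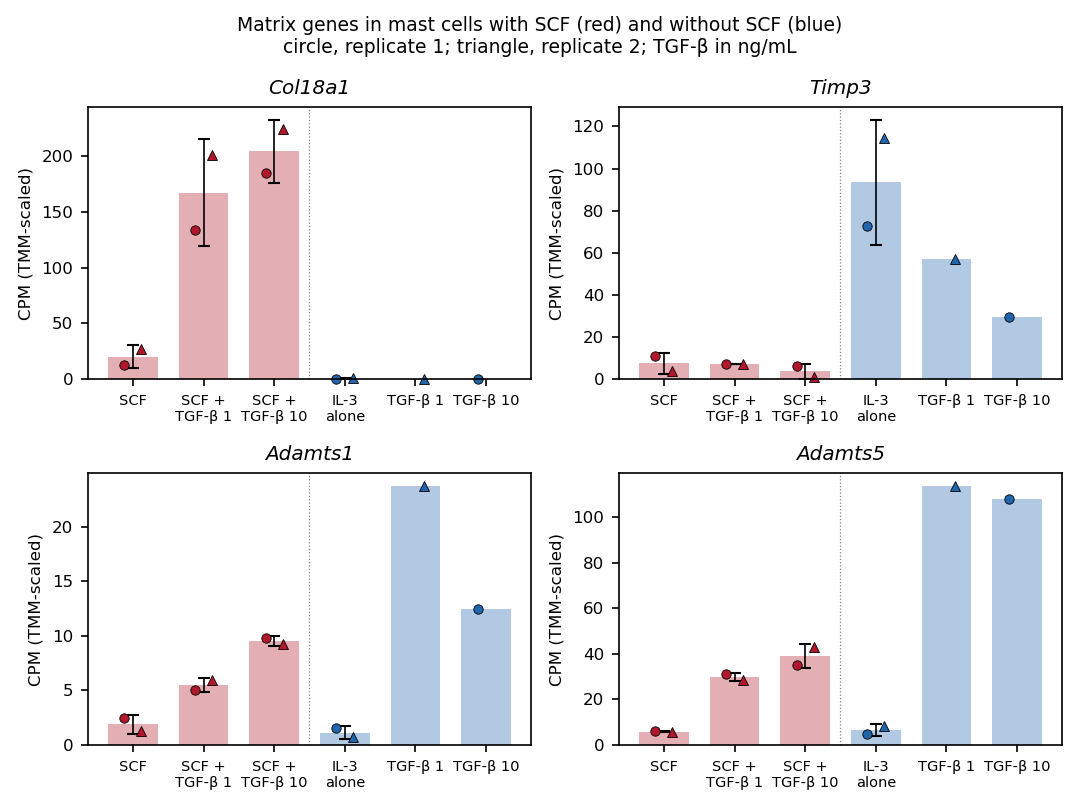
Level of each gene in CPM scaled by TMM factors, by group, with bars at the group mean, error bars of 1 SD where n = 2, circles for replicate 1 and triangles for replicate 2. Col18a1 is high with SCF and TGF-β (134 to 224 CPM), Timp3 is high with IL-3 alone (72.6 and 114 CPM), and Adamts1 and Adamts5 are high with TGF-β alone.

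Timp3, the inhibitor, had the opposite distribution. Its levels were 11.0 and 3.78 CPM with SCF, 7.16 and 7.12 CPM with SCF plus 1 ng/mL TGF-β, and 6.26 and 1.09 CPM with SCF plus 10 ng/mL. Without SCF they were 72.6 and 114 CPM with IL-3 alone, 56.9 CPM with 1 ng/mL TGF-β and 29.5 CPM with 10 ng/mL. Each of the 6 libraries with SCF lay below each of the 4 without it. The log2 difference, given as a description, was -3.57 for SCF against IL-3, which is 11.9-fold lower, and -2.94 for SCF with TGF-β over TGF-β alone. The difference between SCF and IL-3 widened to -4.59 without SCF replicate 1, and that between SCF with TGF-β and TGF-β alone widened to -3.83 without replicate 1 of SCF plus 10 ng/mL TGF-β.

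In the edgeR fit of all groups, Timp3 did not pass the threshold in any TGF-β comparison. With SCF present, the log2 change was -0.11 ± 0.54 at 1 ng/mL (SE, edgeR, adjusted p = 0.959) and -0.98 ± 0.61 at 10 ng/mL (adjusted p = 0.412), on 29 and 16 pooled counts with TGF-β and 28 with SCF only. These signs turn without SCF replicate 1, to 0.90 and 0.04. Without SCF, TGF-β alone (1 library of each dose) against IL-3 (n = 2) gave -1.18 ± 0.33 (SE, the edgeR fit, adjusted p = 0.0571, unadjusted p = 0.00214). Both TGF-β libraries lay below both IL-3 libraries. That comparison passed the threshold with limma-voom (adjusted p = 0.0457), without the filter on low counts (adjusted p = 0.000374) and in a fit of only the groups compared (adjusted p = 6.84e-06). It did not pass with any of the 4 compared libraries left out, where the change was -0.70 without the library of 10 ng/mL TGF-β (adjusted p = 0.495), -1.64 without that of 1 ng/mL (adjusted p = 0.0623), -1.49 without IL-3 replicate 1 (adjusted p = 0.0696) and -0.84 without IL-3 replicate 2 (adjusted p = 0.372).

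Syn3, a synapsin gene of neurons, overlaps Timp3 on the other strand and is the only gene that shares exonic bases with any of the 4. Its counts were 3 and 7 with SCF plus 10 ng/mL TGF-β, 4 and 4 with SCF plus 1 ng/mL, 1 and 2 with SCF, 10 and 24 with 10 and 1 ng/mL TGF-β alone, and 27 and 26 with IL-3. Reads of the shared bases cannot be assigned to either gene with certainty, and the strand setting of the counting is not given in the sources used here. Like Timp3, Syn3 was lower with SCF than without it. Among the SCF groups it went the other way, from 1 and 2 counts with SCF to 3 and 7 with SCF plus 10 ng/mL TGF-β. Timp3 went from 22 and 6 counts to 14 and 2. Syn3 had fewer counts than Timp3 in every library except replicate 2 of SCF plus 10 ng/mL TGF-β. Its part in the Timp3 values was not tested.

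Adamts5, the aggrecanase, rose with TGF-β whether SCF was present or not. Its levels were 6.01 and 5.67 CPM with SCF, 31.2 and 28.5 CPM with SCF plus 1 ng/mL TGF-β, and 35.3 and 42.9 CPM with SCF plus 10 ng/mL. Without SCF they were 4.66 and 8.42 CPM with IL-3, 113.7 CPM with 1 ng/mL TGF-β and 108 CPM with 10 ng/mL. All libraries with TGF-β lay above all libraries without it. Against SCF only, the rise was 2.34 ± 0.31 on the log2 scale with 1 ng/mL, or 5.06-fold (SE, n = 2 each, edgeR, adjusted p = 0.000168), and 2.72 ± 0.30 with 10 ng/mL, or 6.58-fold (adjusted p = 1.46e-05). TGF-β alone over IL-3 gave 4.12 ± 0.28, or 17.4-fold (adjusted p = 1.24e-07), which ranked 11 among the rises of all genes in that comparison.

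Adamts5 was at a like level with SCF and with IL-3 alone, and lower with SCF than without it where TGF-β was given. The log2 difference of SCF against IL-3 was -0.10, and its sign turns without IL-3 replicate 2, to 0.32. SCF with TGF-β over TGF-β alone gave -1.70, which is 3.24-fold lower. The TGF-β change with SCF minus the TGF-β change without SCF was -1.59, a description like the other SCF differences.

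Adamts1, a protease that acts on versican, followed the pattern of its neighbour at lower counts. Its levels were 2.503 and 1.26 CPM with SCF, 5.05 and 5.94 CPM with SCF plus 1 ng/mL TGF-β, and 9.83 and 9.23 CPM with SCF plus 10 ng/mL. In cells without SCF they were 1.56 and 0.70 CPM with IL-3, 23.8 CPM with 1 ng/mL TGF-β and 12.4 CPM with 10 ng/mL. All libraries with TGF-β were again above all libraries without it. TGF-β alone (1 library of each dose) over IL-3 (n = 2) gave a rise of 3.78 ± 0.60 on the log2 scale, or 13.7-fold (SE, edgeR, adjusted p = 0.00116), on 44 counts against 4 counts. Without IL-3 replicate 1 that value was 4.47, and the call remained.

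With SCF, Adamts1 changed by 1.45 ± 0.60 at 1 ng/mL TGF-β, which did not pass (SE, edgeR, adjusted p = 0.222), and rose by 2.26 ± 0.55 at 10 ng/mL, or 4.77-fold (adjusted p = 0.0155). The call at 10 ng/mL rests on 39 counts against 7 counts with SCF only. It was lost with DESeq2 (adjusted p = 0.156) and without any of the 4 libraries compared, where the adjusted p was 0.0556 to 0.12 and the change 1.90 to 2.85. As a description, SCF against IL-3 gave a log2 difference of 0.68, which ran from 0.08 without SCF replicate 1 to 1.38 without IL-3 replicate 1. SCF with TGF-β over TGF-β alone gave -1.25, and the TGF-β change with SCF minus that without SCF was -1.92, which ran from -2.61 without IL-3 replicate 1 to -1.33 without SCF replicate 1.

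Set against all genes, the members called with TGF-β were as follows, where rose and fell mean called higher and called lower. These comparisons share libraries with the SCF differences by which the members were chosen, so the counts are a description. With SCF plus 1 ng/mL TGF-β against SCF, 2 of 4 rose and none fell, where 4.64% of all genes were called (1.89% rose and 2.75% fell). At 10 ng/mL, 3 of 4 rose and none fell, where 8.37% of all genes were called (3.78% rose and 4.59% fell). With TGF-β alone against IL-3, 2 of 4 rose and none fell in the edgeR test, where 3.48% of all genes were called (1.36% rose and 2.12% fell). In these 3 comparisons DESeq2 called 2, 2 and 2 of the members and limma-voom 2, 3 and 3, where the third with TGF-β alone was a lower Timp3 (-1.11, adjusted p = 0.0457).

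No difference between the TGF-β doses passed the test in cells with SCF. SCF plus 10 ng/mL against SCF plus 1 ng/mL gave log2 changes of 0.30 ± 0.22 for Col18a1, -0.86 ± 0.61 for Timp3, 0.80 ± 0.45 for Adamts1 and 0.38 ± 0.22 for Adamts5 (SE, n = 2 each). The Timp3 value was -2.64 without replicate 1 of SCF plus 10 ng/mL TGF-β and -0.19 without its replicate 2. None passed in the edgeR test, in DESeq2 or in limma-voom, the unadjusted p was 0.0902 to 0.196 in the edgeR test, and 0 of 4 lay under 0.05. In this comparison 0.0178% of all genes were called, 0.00889% in each direction. The standard errors are wide enough to leave room for a difference between doses, above all for Timp3 and Adamts1.

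**Figure D2:**
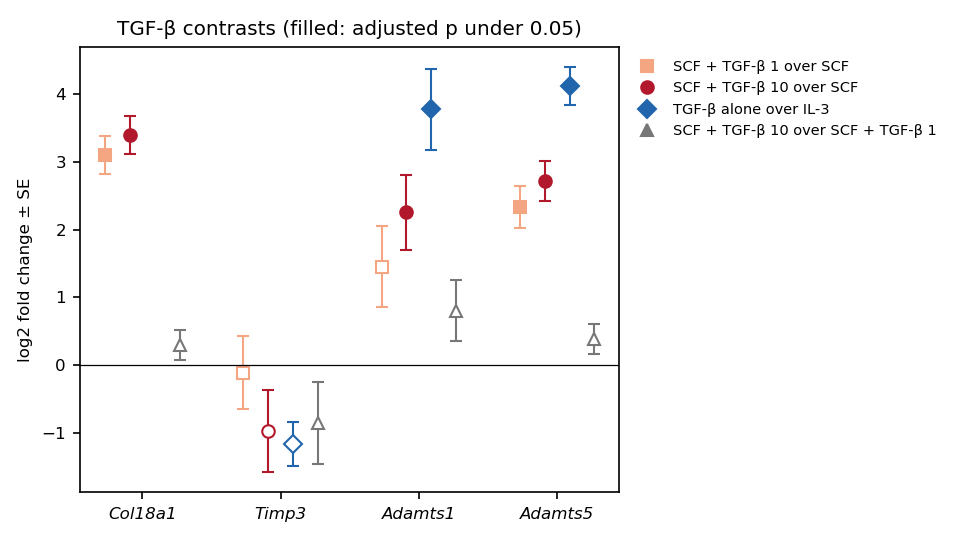
Log2 fold change and SE for each gene in the TGF-β comparisons of the edgeR fit, with filled symbols where the adjusted p was under 0.05. Adamts5 is filled in the 3 comparisons with and without TGF-β, Col18a1 in both with SCF, Adamts1 with TGF-β alone and at 10 ng/mL with SCF, and Timp3 in none; Col18a1 has no value for TGF-β alone.

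Scaled per kb of exon to allow for gene length, Col18a1 reached 29.1 ± 4.00 CPM per kb with SCF plus 10 ng/mL TGF-β (SD, n = 2). That was the highest level of any of the 4 genes in any group. Timp3 stood highest with IL-3 at 11.5 ± 3.63 CPM per kb, and Adamts5 with TGF-β alone at 10.5 CPM per kb at 1 ng/mL and 10.0 at 10 ng/mL. Adamts1 did not exceed 4.48 CPM per kb, its level with 1 ng/mL TGF-β alone.

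The balance of the transcripts of protease and inhibitor differed widely between groups. The ratio of Adamts5 to Timp3 per kb of exon was 0.566 with SCF, 3.18 with SCF plus 1 ng/mL TGF-β, and 7.45 with SCF plus 10 ng/mL, with 95% counting intervals of 0.306 to 1.03, 2.10 to 4.94 and 4.45 to 13.4. Without SCF it was 0.0523 with IL-3, 1.51 with 1 ng/mL TGF-β and 2.76 with 10 ng/mL, with intervals of 0.0319 to 0.0814, 1.12 to 2.06 and 1.92 to 4.06. The ratio in single libraries was 0.412 and 1.13 in the libraries with SCF, and 4.26 and 29.8 in those with SCF plus 10 ng/mL TGF-β, the second of which held 2 Timp3 counts. Those with SCF plus 1 ng/mL gave 3.29 and 3.02 and those with IL-3 gave 0.0485 and 0.0556. Timp3 exceeded Adamts5 with IL-3, and Adamts5 exceeded Timp3 in every group given TGF-β. The ratio of Adamts1 to Timp3 was 0.384 with SCF, 1.17 with SCF plus 1 ng/mL and 3.74 with SCF plus 10 ng/mL, against 0.0203 with IL-3, 0.642 with 1 ng/mL alone and 0.647 with 10 ng/mL alone. These intervals cover counting error only, and the ratios contain the SCF differences by which the genes were chosen. The exon length used for Timp3 includes the 1733 bases shared with Syn3, whose effect on the ratios was not tested.

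**Figure D3:**
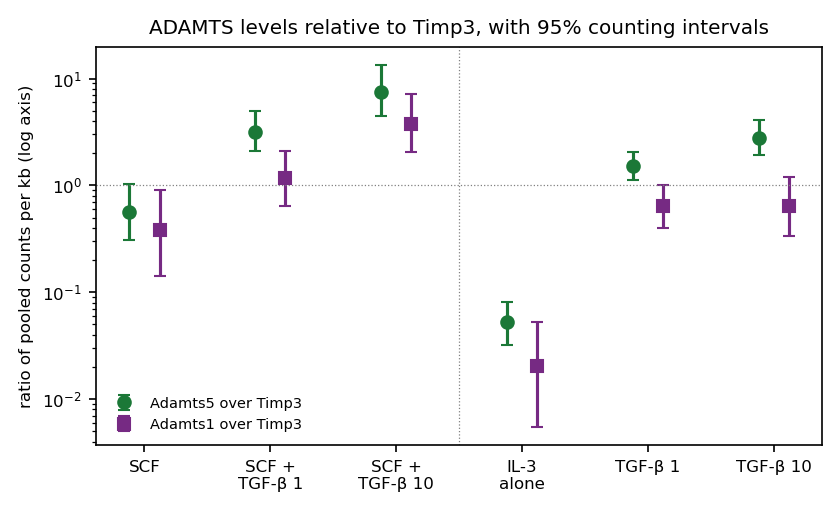
Ratio of pooled counts per kb of exon of Adamts5 and Adamts1 to Timp3 in each group on a log axis, with 95% counting intervals and a dotted line at equal levels. SCF plus 10 ng/mL TGF-β lies highest (7.45 and 3.74, with 4.26 and 29.8 for Adamts5 in its single libraries) and IL-3 alone lowest (0.0523 and 0.0203).

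Over the 10 libraries, the 4 genes varied together in pairs. The Pearson correlation of log2 CPM was 0.94 between Adamts1 and Adamts5 (Spearman 0.89) and -0.88 between Col18a1 and Timp3 (Spearman -0.84). For the other pairs it lay between -0.17 and 0.10. The points are libraries of 6 groups that share treatments, so these coefficients mostly restate the group levels. The genes were chosen by their SCF differences, so a strong coefficient between Col18a1 and Timp3 was set up by the choice.

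**Figure D4:**
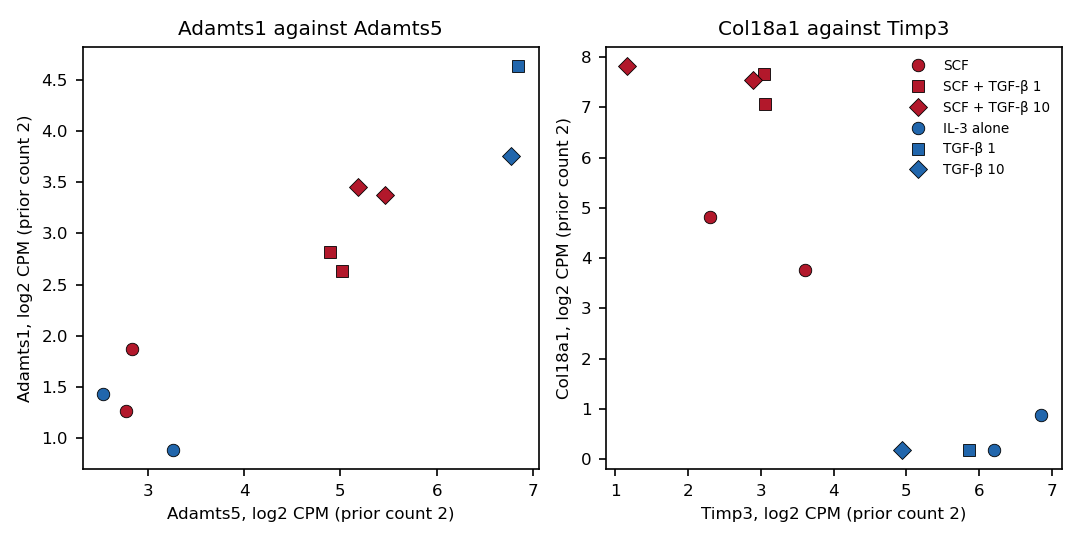
Log2 CPM (prior count 2) of Adamts1 against Adamts5 and of Col18a1 against Timp3 in the 10 libraries, with red for SCF, blue for no SCF and the symbol giving the TGF-β dose. Adamts1 and Adamts5 separate the libraries with TGF-β from those without it (r = 0.94). Col18a1 and Timp3 separate the libraries by SCF (r = -0.88), the difference by which the genes were chosen.

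Among 8827 tested genes with a group mean of at least 10 CPM, the closest to Col18a1 by Pearson correlation over the 10 libraries were Sytl2, Paqr4 and Pqlc1 (r = 0.990, 0.987 and 0.986). Sytl2, a synaptotagmin-like protein of vesicle transport, averaged 144.5 CPM with SCF plus 10 ng/mL TGF-β and 20.7 CPM with IL-3. Closest to Timp3 were the zinc transporter gene Slc30a2, Syne1 and Grp, the gene of gastrin-releasing peptide (r = 0.977, 0.970 and 0.969). Fnbp1, Slc6a9 and Arhgap17 were closest to Adamts1 (r = 0.956, 0.954 and 0.944), and Abi3, the kinase gene Jak1 and Fnbp1 to Adamts5 (r = 0.975, 0.972 and 0.970). Fnbp1, which encodes a membrane-bending protein, is thus on the lists of both proteases.

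Most other genes of the pathway were not expressed well enough to test. Of the other inhibitors, Timp1, Timp2, Timp4 and Reck, only Timp4 passed the filter, and it was called in no comparison; Timp1 had 0 counts in all libraries. Timp4 averaged 2.38 ± 1.59 CPM with SCF and 12.3 ± 3.46 CPM with IL-3 (SD, n = 2 each). Of 17 other ADAMTS proteases 2 passed the filter. Adamts10, which acts on fibrillin microfibrils, changed by 0.53 on the log2 scale with SCF plus 1 ng/mL TGF-β, which did not pass (edgeR, adjusted p = 0.229). With SCF plus 10 ng/mL it rose by 0.98 ± 0.21 (SE, edgeR, adjusted p = 0.00737). That call was lost with DESeq2 (adjusted p = 0.102) and without SCF replicate 1 (adjusted p = 0.057).

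The ADAMTS-like genes encode matrix proteins that resemble ADAMTS but lack the protease. Of 7, 5 passed the filter, and 1 was called higher and 1 lower in each of the 3 comparisons with and without TGF-β. With SCF, Thsd4 rose by 2.65 when 1 ng/mL TGF-β was added and by 2.80 when 10 ng/mL was added, and averaged 33.1 ± 14.5 CPM with SCF plus 10 ng/mL TGF-β, against 4.84 ± 1.18 CPM with SCF (SD, n = 2 each, edgeR, adjusted p = 0.000732 and 0.00024). With TGF-β alone it rose by 2.45 (adjusted p = 0.003), a call that was lost without the library of 10 ng/mL TGF-β (1.97, adjusted p = 0.0961). Adamtsl3 fell by 2.63 with SCF plus 10 ng/mL TGF-β, to 5.09 ± 2.78 CPM, against 31.0 ± 3.45 CPM with SCF (adjusted p = 4e-04). Without replicate 2 of SCF plus 10 ng/mL TGF-β it fell by 3.27. Its falls at 1 ng/mL (-1.43, adjusted p = 0.0225) and with TGF-β alone (-1.69, adjusted p = 0.00378) did not hold without single libraries: at 1 ng/mL any of the 4 compared ended the call (adjusted p = 0.0721 to 0.145), and so did DESeq2 (adjusted p = 0.0768), and with TGF-β alone the library of 10 ng/mL (adjusted p = 0.112) and IL-3 replicate 2 (adjusted p = 0.0662) did. Adamtsl4, which with Adamtsl3 and Thsd4 was among the 3 most abundant of these genes, was not called and had 14.4 CPM with SCF plus 10 ng/mL TGF-β, against 17.8 CPM with SCF.

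Of 20 matrix metalloproteinases 2 passed the filter. Mmp27 fell with SCF and TGF-β, with changes of -2.53 at 1 ng/mL and -2.38 at 10 ng/mL, to 6.54 ± 5.05 and 7.68 ± 2.41 CPM, against 40.5 ± 10.0 CPM with SCF (SD, n = 2 each, edgeR, adjusted p = 0.000413 and 0.000355). Without replicate 1 of SCF plus 1 ng/mL TGF-β, the first value was -3.74. Mmp24, a membrane-bound metalloproteinase, was called in no comparison at a mean of 27.2 CPM over the groups, and Mmp19 stayed under the filter at 2.51 CPM. Of 12 ADAM family genes 5 passed. Adam8, known from leukocytes, changed by -0.84 and -0.87 with SCF and the lower and higher TGF-β dose (edgeR, adjusted p = 0.0325 and 0.0185). Both calls were lost with DESeq2 (adjusted p = 0.177 and 0.101) and without SCF replicate 2 (-0.53 and -0.56, adjusted p = 0.335 and 0.235). Replicate 1 of the dose compared also ended each call when left out (-0.56 and -0.70, adjusted p = 0.3 and 0.193), and a fit of only the groups compared ended the first (adjusted p = 0.0592).

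Vcan, which encodes the ADAMTS substrate versican, was the only one of 6 hyalectans and other substrates to pass the filter. Its log2 level fell by 1.53 with SCF plus 10 ng/mL TGF-β, to 10.8 ± 0.0954 CPM, against 31.7 ± 9.49 CPM with SCF (SD, n = 2 each, edgeR, adjusted p = 0.00297). At 1 ng/mL with SCF the Vcan change was -0.86, which did not pass (edgeR, adjusted p = 0.0991). With TGF-β alone it fell by 1.496 (adjusted p = 0.0123), a call that was lost with DESeq2 (adjusted p = 0.102), without the library of 10 ng/mL TGF-β (adjusted p = 0.143) and without IL-3 replicate 1 (adjusted p = 0.112). Of the 4 convertases that can activate ADAMTS enzymes 2 passed the filter. Furin fell by 1.02 with TGF-β alone, to 617 and 702 CPM at 10 and 1 ng/mL, against 1335 ± 49.8 CPM with IL-3 (edgeR, adjusted p = 0.000241). With SCF plus 1 ng/mL TGF-β the Furin change was -0.45, which did not pass (edgeR, adjusted p = 0.0617). With SCF plus 10 ng/mL TGF-β it fell by 0.58 (adjusted p = 0.00964), which was lost without SCF replicate 2 (adjusted p = 0.105) and without replicate 1 of SCF plus 10 ng/mL TGF-β (adjusted p = 0.153).

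Genes that build the collagenous matrix were few. Of 24 basement membrane genes 4 passed the filter and of 18 other collagens 2 did, and none was called in the 4 TGF-β comparisons by edgeR, DESeq2 or limma-voom. At an unadjusted p under 0.05, edgeR found 1 of the basement membrane genes with TGF-β alone, and 1 of the other collagens in each of SCF plus 10 ng/mL TGF-β against SCF and against 1 ng/mL. Of 12 genes of collagen modification 7 passed. P4ha1, a catalytic subunit of collagen prolyl hydroxylase, fell with SCF and TGF-β, by a change of -0.87 at 1 ng/mL and -0.77 at 10 ng/mL (adjusted p = 0.00414 and 0.00645), and averaged 134.8 CPM with SCF plus 10 ng/mL and 230.1 CPM with SCF. The call at 10 ng/mL was lost without replicate 2 of that group (adjusted p = 0.0672). P4ha2, another such subunit, changed by -1.73 and -1.20 (adjusted p = 0.00356 and 0.0203), which was lost at 1 ng/mL without replicate 1 of that group (-1.22, adjusted p = 0.0649) and at 10 ng/mL with DESeq2 (adjusted p = 0.142), without replicate 1 of that group (-0.87, adjusted p = 0.229) and without SCF replicate 2 (-0.998, adjusted p = 0.152).

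The medians of these lists can be read against that of all genes. For SCF plus 1 ng/mL TGF-β against SCF, SCF plus 10 ng/mL against SCF and TGF-β alone against IL-3, the median log2 change of all tested genes was 0.006, -0.0005 and -0.02. That of the ADAMTS-like genes was -0.57, -0.17 and 0.26, and that of the ADAM family genes -0.21, -0.37 and -0.28. For the basement membrane genes it was -0.15, -0.22 and -0.09, and for the collagen modification genes -0.19, -0.13 and -0.10. The other lists kept at most 2 tested genes.

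**Figure D5:**
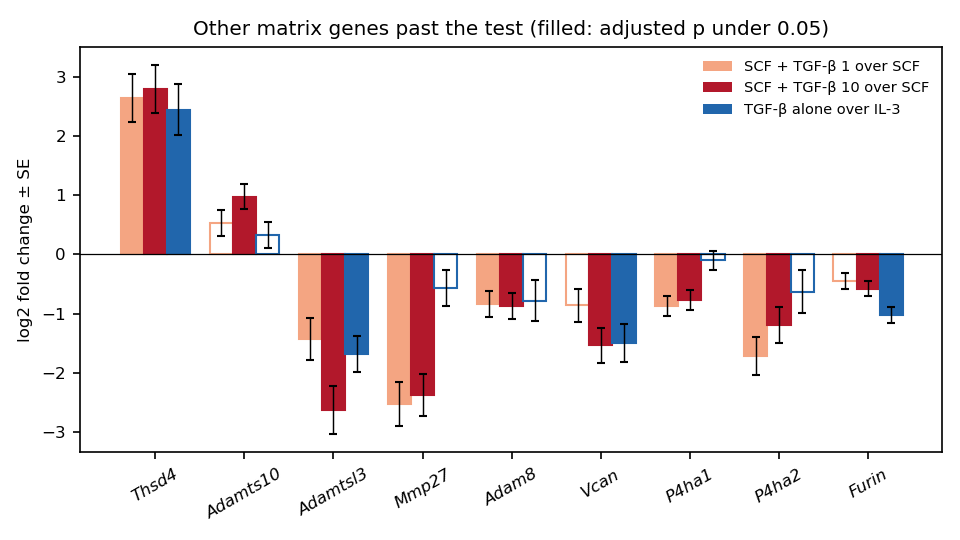
Log2 fold change and SE of the other matrix genes that passed the edgeR test in at least 1 of the 3 comparisons with and without TGF-β, with filled bars where the adjusted p was under 0.05. Thsd4 is the sole gene called higher in all 3 (2.65, 2.80 and 2.45), Adamtsl3 was called lower in all 3, and Mmp27 was called lower in both with SCF.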

How the data were processed

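Libraries were made with SmartSeq2 and Nextera XT and sequenced on a NextSeq500, per the labels' protocols. STAR, HTSeq and DESeq2 with GRCm38 (mm10) were used, per the submitters' processing notes, without versions or an annotation release. The authors deposited whole-number read counts for each gene, with no molecular identifiers named, so counting intervals and floors cover counting error only. Apart from the gene rows, 5 rows named no gene and were left out of library sizes: reads not uniquely aligned made up 37.2% to 55.6% of all counted, reads with no feature 26.0% to 33.6% and ambiguous reads 2.04% to 2.85%.

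The quasi-likelihood F test of edgeR 4.0.16 (R 4.3.3) was run after filterByExpr and TMM scaling. The fit had 1 mean for each of 6 groups over 10 libraries, with 4 residual degrees of freedom and a biological coefficient of variation of 0.126; the spread of the groups with 1 library was taken from the others. p-values were adjusted by Benjamini-Hochberg over 11247 genes within each comparison, and genes were called at an adjusted p under 0.05. The SE was the absolute log2 change divided by the square root of F. TGF-β alone was the mean of both doses with 1 library each, so the difference between these libraries did not enter its SE. Ratios for Col18a1 were taken from pooled counts: against the 0 counts of TGF-β alone as a bound over a floor of 3 counts in the group, and against the 1 count of IL-3 as the ratio itself with its counting interval. Replicates differed with a chi-square of 3.20 to 4.12 per gene, so no library was a repeat of another within sampling noise. No group had the 4 libraries that a test for an outlying library needs.

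The 4 genes and the lists of other matrix and marker genes were chosen with earlier results of these data known. Beside the members, the text names called list members that averaged 10 CPM or more in either group (at most 4 per list and comparison), the 3 most abundant ADAMTS-like genes, TIMPs and metalloproteinases, and the 3 genes most like each member. The alternatives were DESeq2 1.42.0 and its size factors, limma-voom (limma 3.58.1), no filter, a filter of 10 CPM in 2 libraries, a replicate block, only the groups compared and each library left out.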

Additional observations from a re-analysis of the deposited data

How the results depend on the processing

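The direction and side of the threshold held under all 17 alternatives for Col18a1 and Adamts5 in each TGF-β comparison with a value, for Adamts1 with TGF-β alone and between doses, and for Timp3 between doses. For Adamts1 with 1 ng/mL it held under the 16 that gave a value; in a fit of only the groups compared the gene fell under the filter there, as it did for SCF against IL-3. The other member results changed as follows, and the cause was not tested. Timp3 with SCF plus 1 ng/mL TGF-β changed sign with limma-voom (0.0347) and ranged from -0.62 to 0.90 over the fits with 1 library left out, and with 10 ng/mL from -2.75 to 0.0404. Adamts1 with 10 ng/mL was no longer called with DESeq2 (2.32) and ranged from 1.90 to 2.85 with 1 library left out. Timp3 with TGF-β alone passed the threshold with limma-voom (-1.11), no filter (-1.18), the groups compared only (-1.17) and a replicate block (-1.17, adjusted p = 0.0173), and ranged from -1.64 to -0.70 with 1 library left out, where it passed without any of the 6 libraries given SCF. The descriptive SCF differences with 1 library left out were -4.59 to -3.06 for Timp3, 0.0818 to 1.38 for Adamts1 and -0.52 to 0.32 for Adamts5 against IL-3. Against TGF-β alone they were -3.83 to -2.47 for Timp3 and -1.71 to -0.78 for Adamts1, and the bound for Col18a1 was 71.5 to 168. The TGF-β change with SCF minus that without SCF ranged from -0.26 to 1.65 for Timp3, -2.61 to -1.33 for Adamts1 and -2.003 to -1.16 for Adamts5. It has no value in a fit of only the groups compared, and the Col18a1 ratio of SCF over IL-3 has none without IL-3 replicate 2, which held its only count.

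The counts of called genes also moved. For SCF plus 1 ng/mL TGF-β against SCF (522 genes) they were 260 with DESeq2, 859 with a replicate block and 252 to 540 with 1 library left out, lowest without SCF replicate 1, SCF replicate 2 or replicate 2 of the treated group (252, 338 and 253). For 10 ng/mL against SCF (941 genes) they were 433 with DESeq2 and 447 to 952, with 447, 531, 503 and 625 without each of the 4 compared libraries. For 10 against 1 ng/mL (2 genes) they were 0 with DESeq2, limma-voom, a filter of 10 CPM or the groups compared only, 8 without filter, 5 with a replicate block and 0 to 5 with 1 library left out; 313 genes lay under an unadjusted p of 0.05 with edgeR. For TGF-β alone (391 genes) they were 214 with DESeq2, 601 without filter, 718 with a replicate block, 712 with the groups compared only and 143 to 442, with 143, 242, 179 and 259 without the library of 10 ng/mL, that of 1 ng/mL, IL-3 replicate 1 or IL-3 replicate 2; the share that rose was 39.1%, and 52.4% without the library of 10 ng/mL. The replicate numbers are shared labels and not a stated pairing: differences between replicates correlated at 0.197 to 0.231 among the SCF groups and at -0.00334 to 0.0215 with IL-3, and the block changed no other member call. Of the other matrix genes' values under alternatives, 296 kept and 27 lost the call, and 0 reversed. Counts of 1 to 28 per library for Adamts1 and 2 to 22 per library for Timp3 with SCF limit what can be resolved for these genes.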
